A study of Mus musculus with 12 samples.

Results

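The genes described here encode the general working parts of the lysosome outside heparan sulfate breakdown: hydrolases, membrane proteins, the enzymes and receptors that route hydrolases by their mannose 6-phosphate tag, and the proton pump. They were taken as a named list of 49 genes, and their probes were found by the gene name in the scanner files. Of these, 48 genes had a probe, 89 probes in all among the 41174 probes of the array. A filter on dim signals kept 45 of those probes, which measured 33 genes among 10892 genes tested. The list is a set of known lysosomal genes, and its rule uses no values of these samples. Its members were, however, chosen with earlier results of these data known. The missing gene was Lipa, lysosomal acid lipase, which the files name Lip1.

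RNA came from neurons of 2 neighbouring brain regions, the medial entorhinal cortex (MEC) and the lateral one (LEC), cut out by laser from Nissl-stained sections of 12 µm. The mutants were female C57BL/6 Naglu-/- mice aged 2 months, and the controls were their female Naglu+/- littermates of the same age and strain, which carry 1 disrupted copy. Naglu encodes the lysosomal enzyme that removes N-acetylglucosamine from heparan sulfate, and mice without it model Sanfilippo syndrome type B. Each region had 3 pairs of a mutant and a control, and 2 Agilent arrays of opposite dye orientation compared the mice of a pair directly, which gave 12 arrays. About 500 neurons went into each capture and their RNA was amplified, so fewer cells of a type and less RNA per cell cannot be told apart.

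Lysosomal hydrolases are made in the endoplasmic reticulum, tagged with mannose 6-phosphate in the Golgi and carried to acid compartments by receptors that bind the tag. The vacuolar ATPase, a pump with a cytosolic ATPase part and a membrane part, acidifies the lumen so that the hydrolases work, and heavily glycosylated membrane proteins line the inside. Many genes of this set share a promoter element bound by TFEB, a transcription factor of lysosome formation. In mucopolysaccharidoses such as Sanfilippo syndrome, undigested heparan sulfate is known to collect in lysosomes of neurons and of microglia, and other lysosomal proteins are often found raised in the affected brain.

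Several facts of the whole series touch the values. The authors' value table and the labels disagree on the dye direction of replicate 2 in both regions, and going by that table, 5 of 6 LEC scans were filed with the wrong LEC sample; the table's assignment put 6 of 6 LEC arrays in scan order and the file names 1 of 6. The table's direction was used, and that of replicate 2 is not settled. Turning replicate 2 of both regions as labelled changed the sign of the average in 14 of the 33 genes. Larger averages were among them, such as Scpep1 (0.11 to −0.060) and Laptm4a (0.11 to −0.017). The sign of any single pair 2 value, and of those 14 averages, thus holds only under the table's direction. All MEC arrays were scanned on 1 day and all LEC arrays on another, so region and scan day cannot be told apart. Naglu had 2 probes, neither kept, with 0 and 12 of 24 readings well above background, so it gave no check of the genotypes. Among defining markers, Slc17a7 and Tbr1 of excitatory neurons and Gfap and Aqp4 of astrocytes did not pass the filter, while all 6 general neuron markers did. Median Cy3 signals per array lay between 67.0 and 92.5 and median Cy5 signals between 44.4 and 54.9, and the number of arrays limits the precision.

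A reading is 1 probe in 1 channel of 1 array, which gives 24 readings, 6 in each region and genotype. A probe was kept when at least 4 of the 6 readings of any region and genotype were well above background by the scanner's own flag. The filter left 12 of 19 hydrolases, 9 of 11 membrane proteins, 3 of 4 tagging and sorting genes and 9 of 15 pump genes. Of the 33 genes kept, 21 were well above background in all 24 readings, among them the hydrolases Arsa, Neu1, Ppt1, Scpep1, Smpd1 and Tpp1.

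**Figure D1:**
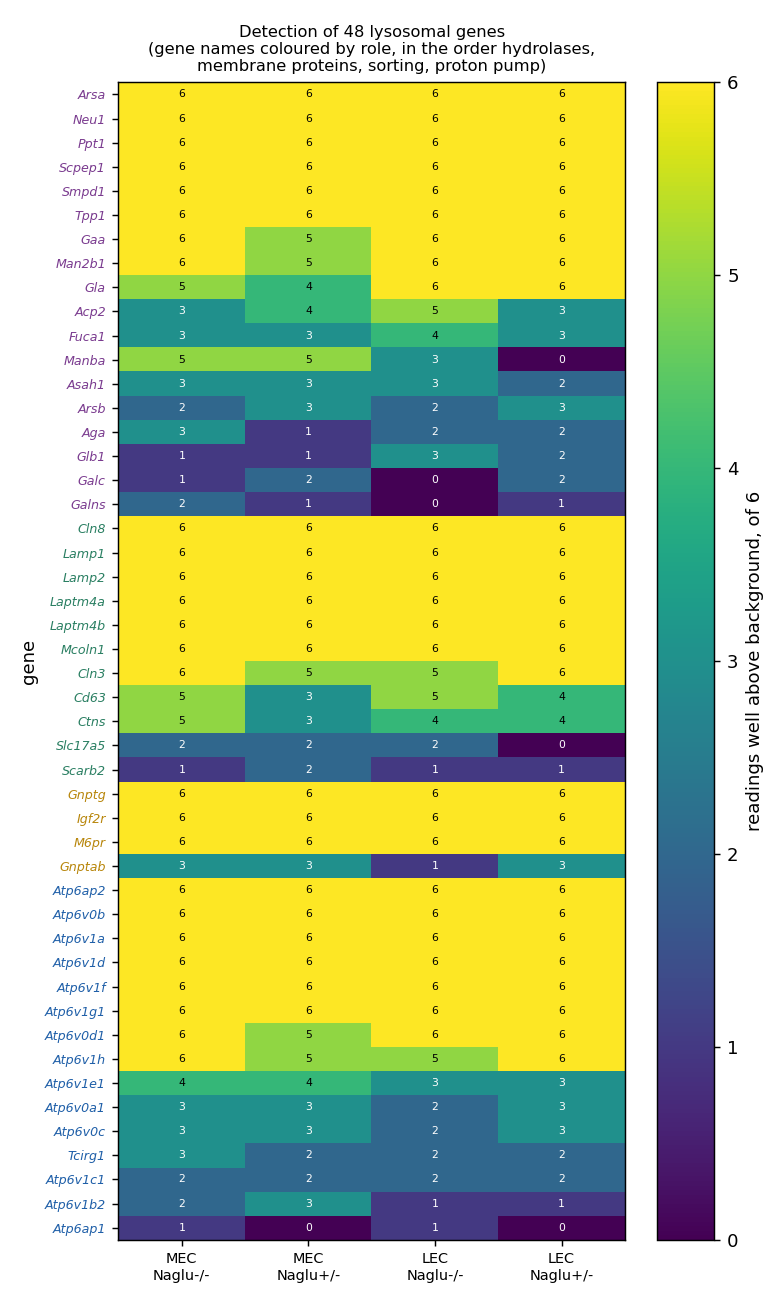
Each cell gives, for the probe used (or the most often detected probe of a gene not kept), the number of the 6 readings that were well above background, for 48 genes down the page and the region and genotype across. Most genes sit either at 6 in every column or at 3 or fewer; Manba has 3 in LEC Naglu-/- and 0 in LEC Naglu+/- readings.

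The 15 genes with a probe that were not kept were Aga, Arsb, Asah1, Galc, Galns and Glb1 among hydrolases, Scarb2 and Slc17a5 among membrane proteins, Gnptab among tagging genes, and Tcirg1, Atp6ap1, Atp6v0a1, Atp6v0c, Atp6v1b2 and Atp6v1c1 among pump genes. Their best probes had 2 (Atp6ap1) to 11 (Asah1, Atp6v0a1, Atp6v0c) of 24 readings well above background, nearly all in Cy3, the brighter dye on these arrays. Asah1, acid ceramidase, had 11 such readings in Cy3 and 0 in Cy5. These genes were therefore not measured in both dyes, and nothing is said of their levels. The same limit touches some genes that were kept: 22 of the 33 had all 12 Cy5 readings well above background, but Fuca1 had 1, Atp6v1e1 2 and Acp2 3. Manba, beta-mannosidase, was kept through its MEC readings (5 of 6 mutant and 5 of 6 control) and had 3 of 6 mutant and 0 of 6 control readings in LEC. Its LEC pairs had log2 ratios of mutant over control of 0.029, 0.16 and −0.12. They compare signals mostly not well above background, so no direction is read from them.

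Promoter windows from RefSeq, build GRCm38.p6, from 250 bases before to 50 bases after the start site, were found for 39 of the 49 genes. The palindrome TCACGTGA, which holds the core CACGTG of the element bound by TFEB, lay in 7 of these 39 genes (17.9%), against 304 of 27025 genes with a window (1.12%). The core alone, which the longer motif contains, lay in 12 of 39 (30.8%), against 2187 of 27025 (8.09%). Both motifs read the same on either strand, so a single search covered both. The 7 stretches are shown because they carry the element that these genes share by description; each runs 5′ to 3′ on the gene's own strand over 40 bases, with the motif in capitals, and Gla and Igf2r hold a further copy elsewhere in the window.
Gla (alpha-galactosidase A, chrX:134601210-134601249, minus strand): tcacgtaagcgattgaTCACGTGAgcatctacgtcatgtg
Mcoln1 (lysosomal cation channel, chr8:3500457-3500496, plus strand): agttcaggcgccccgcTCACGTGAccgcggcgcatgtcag
Cln3 (lysosomal membrane protein lost in Batten disease, chr7:126583335-126583374, minus strand): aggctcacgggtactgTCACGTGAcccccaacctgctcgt
Gnptg (gamma subunit of the tagging enzyme, chr17:25240115-25240154, minus strand): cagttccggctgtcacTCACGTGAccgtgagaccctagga
Igf2r (mannose 6-phosphate receptor, chr17:12769732-12769771, minus strand): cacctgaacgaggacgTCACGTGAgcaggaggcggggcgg
Atp6v1a (catalytic pump subunit, chr16:44139368-44139407, minus strand): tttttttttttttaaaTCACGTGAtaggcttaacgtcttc
Atp6v0d1 (pump subunit of the membrane part, chr8:105566045-105566084, minus strand): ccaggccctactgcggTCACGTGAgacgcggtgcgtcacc
All 7 genes were measured. Their log2 ratio of mutant over control, averaged over both regions, ran from −0.066 (Mcoln1) to 0.067 (Igf2r) with a median of −0.035, beside a median of 0.025 and a range of −0.15 to 0.16 in the 21 measured genes whose window lacks the longer motif. These medians were 0.024 and 0.027 with replicate 2 turned. A match in these letters is a description of the window and not a bound site.

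The first comparison asked whether neurons without Naglu carry more or less of these transcripts than their heterozygous littermates. No lysosomal gene of the list passed an adjusted p of 0.05 by limma, in MEC, in LEC, in their average or in the difference between the regions. The ratios were small: averaged over both regions, the 33 genes ran from −0.15 for Atp6v1f to 0.16 for Ppt1 on the log2 scale, with a median of 0.019 beside 0.00061 for all 10892 genes. In that average 23 of the 33 lay above 0, beside 5501 of all 10892 genes, with 22 above 0 in MEC alone and 21 in LEC alone. With replicate 2 turned the median was 0.029 and again 23 lay above 0, although 14 genes changed sign.

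The same test called 0 of 10892 genes in each of those fits, so percent called was 0 in MEC, 0 in LEC, 0 in the average and 0 in the difference. At an unadjusted p under 0.05, 0 of the 33 genes passed in MEC (1.13% of all genes), 0 in LEC (1.56%), 1 in the average (Ppt1, 2.23% of all genes) and 0 in the difference (0.542%). The 95% intervals of the averages set the size that could be hidden: over the 33 genes they reached from −0.40 (Atp6v1f) to 0.43 (Neu1), that is, from 0.758-fold to 1.34-fold. In a single region they reached from −0.55 to 0.59. Ratios of dim probes are compressed by the offset of 50 added to every signal, so these bounds hold on that scale. With Agilent's processed signals, which carry no such offset, the averages ran from −0.16 (Gla) to 0.32 (Lamp2), and no gene of the list passed. Gaa was then at 0.32, Cd63 at 0.27, Tpp1 at 0.26, Ctns at 0.23 and Ppt1 at 0.21.

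**Figure D2:**
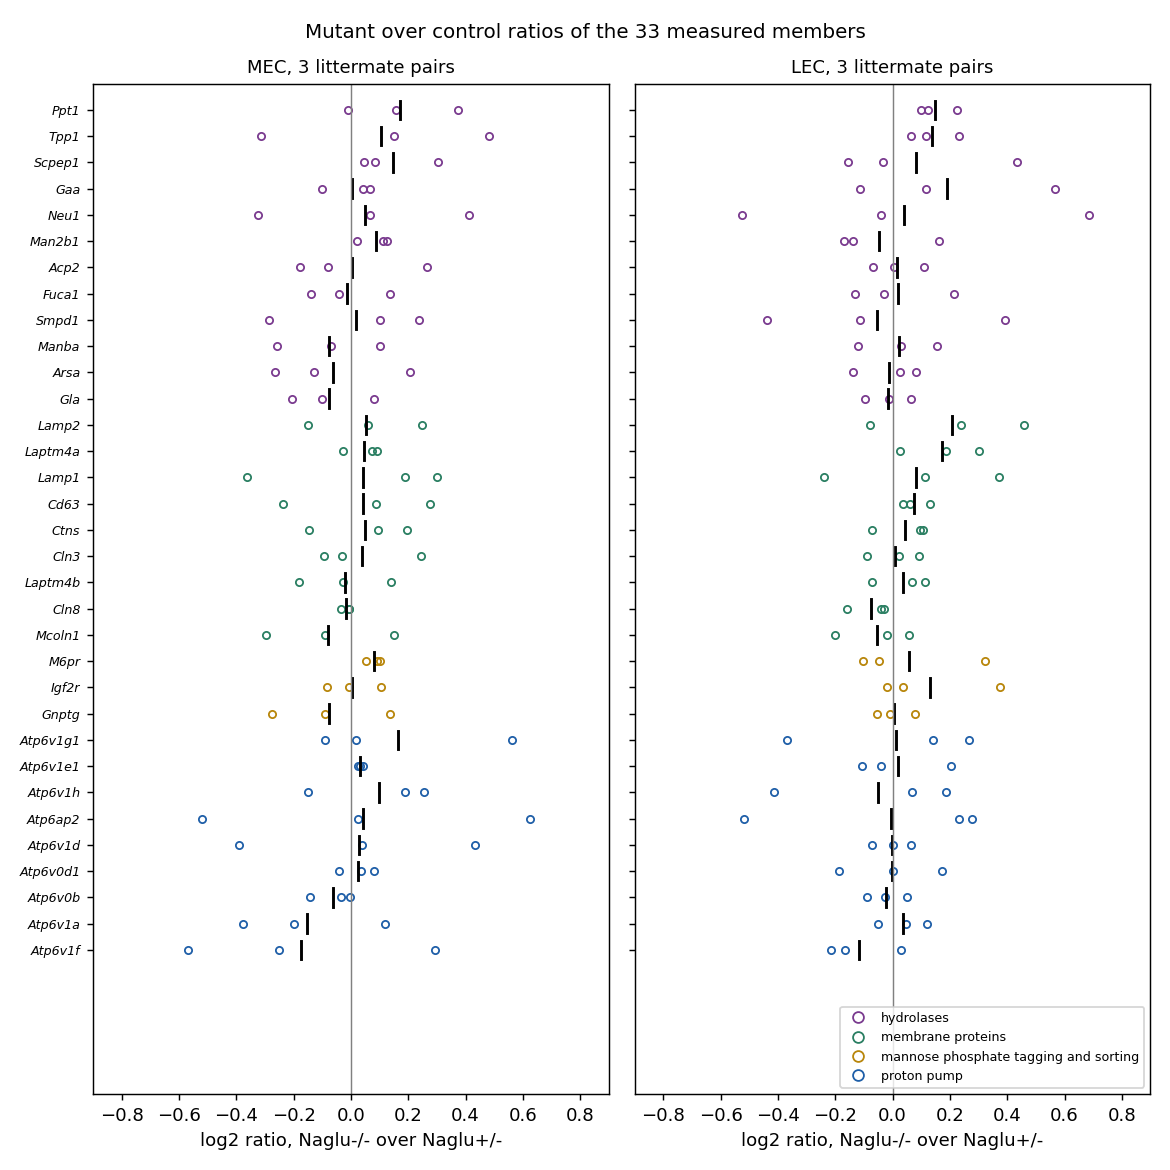
Each circle is the log2 ratio of Naglu-/- over Naglu+/- in 1 littermate pair (mean of 2 dye-swapped arrays) and each black line the mean of 3 pairs, with MEC left, LEC right, and genes grouped by role and ordered by their average. Under the table's direction Cln8 alone has all 6 pairs on 1 side of 0; with replicate 2 turned it has pairs on both sides and an average of 0.019.

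Among the hydrolases, Ppt1 had the smallest p. It encodes the thioesterase that strips palmitate from proteins, and its loss in humans causes an infantile form of neuronal ceroid lipofuscinosis. Its log2 ratios were 0.37, 0.16 and −0.012 in the MEC pairs and 0.12, 0.23 and 0.10 in the LEC pairs, so mutant neurons were higher in 5 of 6 pairs. The average was 0.16 ± 0.059 (SE, n = 6 pairs), a 1.12-fold difference, with a limma p of 0.030 before and 1.00 after adjustment over all genes. The value moved with the direction of replicate 2: with that replicate turned as labelled the average was 0.033.

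Tpp1, a tripeptidyl peptidase that is likewise lost in a childhood ceroid lipofuscinosis, had 0.15, −0.31 and 0.48 in MEC pairs and 0.063, 0.23 and 0.12 in LEC pairs. The MEC pairs disagree in sign and the LEC pairs are all above 0; the average was 0.12 (adjusted p = 1.00 by limma). In every LEC pair, however, the dye-swapped arrays lay on opposite sides of 0, above it with the mutant in Cy5. LEC pair 2 was at −0.23 with replicate 2 turned. Scpep1, a serine carboxypeptidase, had 0.30, 0.085 and 0.046 in MEC pairs and −0.034, 0.43 and −0.15 in LEC pairs, with an average of 0.11 that became −0.060 with replicate 2 turned. The MEC pairs of Scpep1 were all above 0 and the LEC pairs were not.

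Gaa, the acid alpha-glucosidase that breaks down glycogen, had 0.042, −0.10 and 0.067 in MEC pairs and 0.12, 0.57 and −0.11 in LEC pairs. A single pair, LEC pair 2, stood apart, on both of its arrays (0.76 and 0.38), and the LEC mean of 0.19 became −0.19 with replicate 2 turned. Man2b1, the lysosomal alpha-mannosidase, was above 0 in all MEC pairs (0.023, 0.13 and 0.11) and had 0.16, −0.17 and −0.14 in LEC pairs.

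The remaining hydrolases lay close to 0 in the average: Acp2, an acid phosphatase, at 0.0091, Fuca1, alpha-fucosidase, at 0.0012, Manba at −0.027, Arsa, the sulfatidase, at −0.037 and Gla at −0.045. By role, 8 of 12 hydrolases were above 0 in the average, with a median of 0.014; with replicate 2 turned, 6 of 12 were, and Acp2, Fuca1 and Manba changed sign.

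Neu1 and Smpd1 had averages near 0 with pairs far from it. Neu1, the sialidase that trims sialic acid from glycans, had 0.066, 0.41 and −0.33 in MEC pairs and −0.039, −0.53 and 0.68 in LEC pairs. Smpd1, acid sphingomyelinase, had 0.10, 0.24 and −0.29 in MEC pairs and −0.11, −0.44 and 0.39 in LEC pairs. Under the table's direction both genes were high in mutants in MEC pair 2 and LEC pair 3 and low in MEC pair 3 and LEC pair 2. With replicate 2 turned, both were low in MEC pairs 2 and 3 and high in LEC pairs 2 and 3.

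For Neu1 the pairs far from 0 were read alike with both dye orientations. Its ratios were 0.41 and 0.41 on the arrays of MEC pair 2, −0.63 and −0.43 on those of LEC pair 2, and 0.58 and 0.79 on those of LEC pair 3. For Smpd1 the arrays of MEC pair 2 gave 0.50 and −0.027, which differ between dyes.

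Of the membrane proteins, 7 of 9 were above 0 in the average and the median was 0.045. Lamp2, one of the main glycoproteins of the lysosomal membrane and a receptor of chaperone-mediated autophagy, had 0.060, −0.15 and 0.25 in MEC pairs and 0.24, 0.46 and −0.078 in LEC pairs (average 0.13 ± 0.083, SE; adjusted p = 1.00 by limma). Laptm4a, a small transmembrane protein of late endosomes, had 0.089, 0.073 and −0.028 in MEC pairs and 0.19, 0.30 and 0.024 in LEC pairs. Its 5 pairs above 0 gave an average of 0.11 and, in LEC, the smallest unadjusted p of the list in a single region (0.051); with replicate 2 turned the average was −0.017.

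Lamp1, the partner glycoprotein of Lamp2, had 0.19, −0.36 and 0.30 in MEC pairs and 0.11, 0.37 and −0.24 in LEC pairs, with both arrays of a pair on 1 side of 0 in 5 of 6 pairs. Cln8, a protein of the endoplasmic reticulum that helps hydrolases leave it, lay below 0 in all 6 pairs, from −0.0063 to −0.16. Under the table's direction it was the single gene of the list with 1 sign in every pair, beside 1.86% of all genes, and its average was −0.046 (adjusted p = 1.00, limma across all genes). With replicate 2 turned its average was 0.019 and its pairs lay on both sides of 0, while Gla and Atp6v1f then lay below 0 in all 6 pairs. In none of the 6 pairs of Cln8 did the dye-swapped arrays both point to the same side.

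Cd63, a tetraspanin of late endosomes, was at 0.059, Ctns, the cystine exporter, at 0.045, Cln3 at 0.025, Laptm4b at 0.0067 and Mcoln1, a calcium release channel, at −0.066 in the average. Cln3 was at −0.065 and Mcoln1 at 0.013 with replicate 2 turned. Laptm4b had the smallest absolute average among membrane proteins, from pairs of −0.028, −0.18 and 0.14 in MEC pairs and 0.066, −0.073 and 0.11 in LEC pairs.

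The 2 receptors of mannose 6-phosphate had averages just above 0. M6pr, the cation-dependent receptor, had 0.091, 0.10 and 0.051 in MEC pairs and −0.046, −0.10 and 0.32 in LEC pairs (average 0.069). Igf2r, the cation-independent receptor that also binds insulin-like growth factor II, had 0.10, −0.0057 and −0.085 in MEC pairs and −0.020, 0.035 and 0.38 in LEC pairs (average 0.067). In both genes LEC pair 3 was the highest. Gnptg, the gamma subunit of the enzyme that makes the tag, averaged −0.035, and 0.075 with replicate 2 turned.

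The pump genes had the widest spread between pairs. Atp6v1f, a subunit of the cytosolic part, had −0.25, 0.30 and −0.57 in MEC pairs and −0.21, 0.028 and −0.17 in LEC pairs, and its average of −0.15 was the lowest of the 33 genes. In 5 of its 6 pairs both arrays were on 1 side of 0, and 4 of 6 pairs were below 0; with replicate 2 turned the average was −0.25. Without MEC replicate 3, its MEC mean of −0.18 became 0.021.

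Atp6v1a, the catalytic subunit, had −0.20, −0.38 and 0.12 in MEC pairs and 0.045, −0.052 and 0.12 in LEC pairs. Atp6v0b, a proteolipid of the membrane part, was below 0 in 5 of 6 pairs, from −0.0045 to −0.14, with 0.052 in LEC pair 3. With replicate 2 turned, the MEC mean of Atp6v1a became 0.100, its average 0.086 and the average of Atp6v0b became 0.016.

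Atp6ap2, the accessory protein also known as the prorenin receptor, had 0.024, −0.52 and 0.62 in MEC pairs and 0.28, 0.23 and −0.52 in LEC pairs. The value of LEC pair 1 rests on 1 array, since the spot on the other array was left out as an outlier. Its pairs had an SD of 0.46 over 6, the largest of the list, beside 0.057 for Cln8 and a median of 0.16 over the 33 genes (0.14 over all genes). Of the other 32 genes, 9 had the signs of Atp6ap2 in pairs 2 and 3 of both regions; those of pair 2 hold only under the table's direction.

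Atp6v1g1, a stalk subunit, had 0.017, −0.091 and 0.56 in MEC pairs and 0.14, 0.27 and −0.37 in LEC pairs, and Atp6v1h, a regulatory subunit, had 0.19, −0.15 and 0.25 in MEC pairs and 0.19, 0.069 and −0.41 in LEC pairs. The pump median was 0.024, −0.091 and 0.080 in the MEC pairs and 0.14, 0.0027 and −0.17 in the LEC pairs, beside −0.045 for all genes in MEC pair 2 and 0.014 in LEC pair 3. The pump median was thus lowest in LEC pair 3. The mean log2 ratio over the 6 general neuron markers was −0.27 in MEC pair 2 and −0.062 in LEC pair 3; its part in the pump values was not tested. Atp6v1d (0.013), Atp6v1e1 (0.025) and Atp6v0d1 (0.010) lay near 0 in the average, and Atp6v1d was at −0.13 with replicate 2 turned.

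Of 198 gene and pair combinations over the 33 genes, the dye-swapped arrays fell on the same side of 0 in 85. For Ppt1, Gaa, Laptm4a, Lamp1, Mcoln1, Atp6v1f and Atp6v1g1 they did so in 5 of 6 pairs. For Acp2, Fuca1, Manba, Cd63, Ctns, Cln8, Atp6v0d1 and Atp6v1e1 they did so in 0 of 6, so that the sign on a single array depended on its dye orientation.

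The values of several genes depended on the probe. In 9 genes with more than 1 kept probe, 8 of the 12 further probes shared the sign of the probe used in the average. Ppt1 was read by 4 kept probes: the brightest, at chr4:122361174-122361233 (mouse build mm8, plus strand), gave the 0.16 above, while the other 3, at chr4:122360217-122360276, chr4:122352479-122352538 and chr4:122359143-122359202, gave 0.018, 0.018 and −0.016. The further probe of Lamp2 gave −0.020 against 0.13, that of Atp6v1f 0.011 against −0.15, and that of Atp6v1g1 −0.094 against 0.088. For Atp6v1g1 the probes moved in opposite directions in every pair but MEC pair 1. The further probe had 0.36 and −0.52 in MEC pairs 2 and 3 and −0.16, −0.67 and 0.33 in LEC pairs. The sign of this gene in those pairs thus depended on the probe.

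M6pr gave like averages on its 3 kept probes, at chr6:122283096-122283155, chr6:122282953-122283012 and chr6:122282159-122282218, of 0.069, 0.079 and 0.070. Single pairs were less alike, with 0.091, −0.19 and 0.16 on these probes in MEC pair 1. The averages of Cln3 (0.025 and 0.019) and Fuca1 (0.0012 and 0.0099) also differed little between probes, but their pairs did not match. The Fuca1 probes had opposite signs in every pair, such as 0.21 and −0.16 in LEC pair 1. Those of Cln3 had 0.24 and −0.10 in MEC pair 2. Scpep1 (0.11 and 0.062) and Laptm4a (0.11 and 0.039) kept their sign on the further probe. One Lip1 probe, outside the list by its name, was well above background in 24 of 24 readings and averaged −0.099 over pairs from −0.52 to 0.27. In level that probe was lower in MEC by a log2 difference of −0.57 (adjusted p = 0.0044 by limma across probes).

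**Figure D3:**
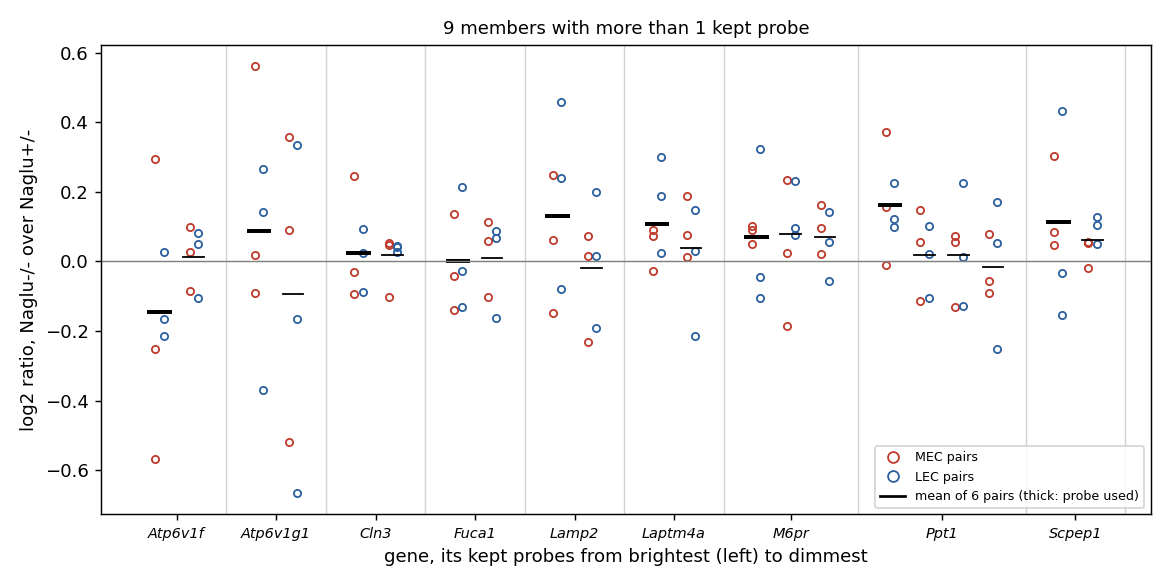
Log2 ratios of Naglu-/- over Naglu+/- for every kept probe of the 9 genes with more than 1, with MEC pairs in red, LEC pairs in blue and the mean of 6 pairs as a line, thick for the probe used. The lines of M6pr lie together at 0.069 to 0.079, while 1 of the 4 Ppt1 probes lies at 0.16 and the others near 0.

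The second comparison asked whether the effect of losing Naglu differed between MEC and LEC neurons. It did not pass the test for any of the 33 genes. The smallest unadjusted p in the difference was that of Atp6v1a (MEC minus LEC −0.19, adjusted p = 1.00, limma across all genes), followed by Laptm4a (−0.13) and Man2b1 (0.14). All 3 differences changed sign with replicate 2 turned as labelled, to 0.028, 0.025 and −0.061. The median difference over the 33 genes was −0.024, and 0.037 with replicate 2 turned.

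The third comparison set the level of each transcript in MEC captures against LEC captures, over both genotypes. The level averages the log2 intensities of Cy3 and Cy5 after quantile normalisation across arrays, and each probe is compared only with itself. Of the 33 genes, 9 were higher in MEC and 2 lower by limma at an adjusted p of 0.05, and 22 did not pass. Of all 10892 genes, 11.9% were called higher and 13.8% lower. The 9 include Manba, which the filter kept only through MEC and which had 3 of 12 LEC readings well above background; without it 8 of 32 were higher.

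The genes that were higher were mostly membrane proteins (Laptm4b, Lamp1, Lamp2, Mcoln1 and Laptm4a, 5 of 9), with the pump subunits Atp6v1g1 and Atp6v1h and the hydrolases Ppt1 and Manba. Of the 33 genes, those that were lower were the mannose 6-phosphate receptors M6pr and Igf2r. The direction of Ppt1, Lamp1, Laptm4a and Mcoln1 turned when arrays were scaled to 1 median. Of the 6 general neuron markers, 5 were called higher in MEC and 1, Map2, lower (−0.32), with a median of 0.63, and their summed intensity was 3068 to 3363 in MEC pairs and 1917 to 2149 in LEC pairs. The 4 measured excitatory neuron markers, of 7 listed, had 1 call in each direction and sums of 1620 to 2519 in MEC pairs and 2897 to 3696 in LEC pairs. Oligodendrocyte markers were called higher in 4 and lower in 2 of 8, with sums of 1266 to 1526 in MEC pairs and 1003 to 1142 in LEC pairs. The part of cell makeup in these levels was not tested.

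Laptm4b, a late endosomal transmembrane protein, had log2 intensities of 6.93, 6.88 and 6.81 in MEC pairs and 6.33, 6.34 and 6.43 in LEC pairs. The groups do not overlap, and the difference was 0.51 ± 0.053 (SE, adjusted p = 0.0010, limma), a 1.42-fold difference on this scale. Laptm4b passed in each of 17 alternative settings, with differences of 0.25 to 1.09; its probe lies at chr15:34228434-34228493 (mm8, plus strand).

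Lamp2 had 6.81, 6.73 and 6.75 in MEC pairs and 6.50, 6.41 and 6.35 in LEC pairs, without overlap, a difference of 0.34 (adjusted p = 0.0044). Its further probe differed by 0.12 and did not pass (adjusted p = 0.11, limma across probes). Lamp1 had 7.81, 7.93 and 8.03 in MEC pairs and 7.65, 7.55 and 7.53 in LEC pairs, likewise without overlap, and differed by 0.35 (adjusted p = 0.0083). Mcoln1 had 6.97, 7.14 and 7.10 in MEC pairs and 6.75, 6.61 and 6.92 in LEC pairs, a difference of 0.31. Laptm4a had 9.53, 9.49 and 9.60 in MEC pairs and 9.36, 9.30 and 9.22 in LEC pairs, a difference of 0.24. The further probe of Laptm4a differed by 0.0505 and did not pass (adjusted p = 0.48, limma across probes).

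Atp6v1g1 had the largest difference, 0.81, from 10.35, 10.06 and 9.77 in MEC pairs and 9.32, 9.29 and 9.15 in LEC pairs, but its further probe at chr4:63036426-63036485 differed by −0.097 and did not pass. Atp6v1h had 6.72, 6.70 and 6.59 in MEC pairs and 6.42, 6.27 and 6.29 in LEC pairs, a difference of 0.34. Ppt1 had 7.59, 7.70 and 7.60 in MEC pairs and 7.30, 7.40 and 7.35 in LEC pairs, a difference of 0.28 on the brightest probe; its other probes gave 0.059, −0.078 and −0.15. For Manba no difference is given, since most of its LEC readings were not well above background.

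M6pr had 6.78, 6.83 and 6.81 in MEC pairs and 6.93, 7.01 and 7.03 in LEC pairs, so MEC was lower by a log2 difference of −0.18 (adjusted p = 0.028, limma) with no overlap. Its other probes differed by −0.030 and 0.010. Igf2r had 6.44, 6.43 and 6.49 in MEC pairs and 6.54, 6.69 and 6.70 in LEC pairs, a difference of −0.19 (adjusted p = 0.042). Gnptg, the third sorting gene, also lay below LEC in every MEC pair, by −0.066, and did not pass.

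**Figure D4:**
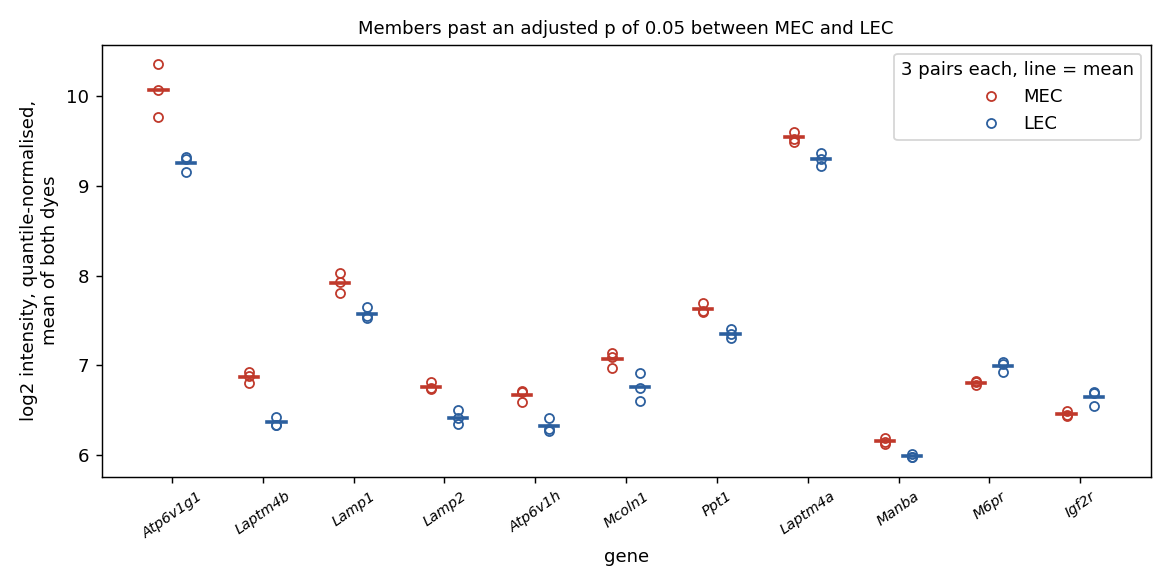
Quantile-normalised log2 intensity of the 11 genes past an adjusted p of 0.05, with the 3 MEC pairs as red circles left of the 3 LEC pairs as blue circles and the mean as a line. The circles of the regions do not overlap in any of the 11 genes, which were picked by a test on these same values. Ppt1, Lamp1, Laptm4a and Mcoln1 turn direction under median scaling. Manba was well above background in 3 of 12 LEC readings, and intensities are compared within a gene and not between genes.

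Counting pairs instead of tests, 11 of the 33 genes had all 3 MEC pairs above all 3 LEC pairs (19.9% of all genes) and 4 had all 3 below (23.9%). Manba, which the filter kept only through MEC, is among the 11. The 4 were M6pr, Igf2r, Gnptg and Gla, the last with a difference of −0.16 and an adjusted p of 0.052. Several pump and hydrolase transcripts overlapped between regions, among them Smpd1 (−0.0042), Atp6v1f (−0.042) and Atp6v1d (0.21, adjusted p = 0.14).

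Within a genotype the calls were fewer. In mutant channels alone 2 of the 33 genes were called higher in MEC (Laptm4b and Atp6v1g1; 1.85% of all genes) and 0 lower (1.71%), and in control channels alone 2 were higher (Laptm4b and Lamp2; 2.86%) and 0 lower (2.2%). Laptm4b differed by 0.48 in mutant channels and by 0.53 in control channels. Leaving out a pair moved the count of 11 to 10 without MEC replicate 1 or LEC replicate 1, to 12 without LEC replicate 3, to 7 without MEC replicate 2 or MEC replicate 3, to 6 without LEC replicate 2, and to 1 (Laptm4b) without replicate 2 of both regions.

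The signals of LEC arrays were more spread than those of MEC arrays, with an interquartile range of 0.33 to 0.36 in LEC arrays and 0.21 to 0.27 in MEC arrays on the log2 scale. Scaling arrays to 1 median instead of 1 distribution moved the median of all genes to −0.19, called 1 of the 33 genes higher (Laptm4b; 1.43% of all genes) and 17 lower (52.6%), and of all calls only 2.65% were higher in MEC, against 46.2% under quantile normalisation. Ppt1, Lamp1, Laptm4a and Mcoln1 then changed sign, to −0.17, −0.14, −0.35 and −0.028. Relative to the median of all genes, the differences under median scaling were 0.44 for Laptm4b, 0.40 for Atp6v1g1, 0.31 for Atp6v1h, 0.28 for Lamp2, 0.16 for Mcoln1, 0.044 for Lamp1 and 0.015 for Ppt1, while Laptm4a was at −0.16, M6pr at −0.33 and Igf2r at −0.24.

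**Figure D5:**
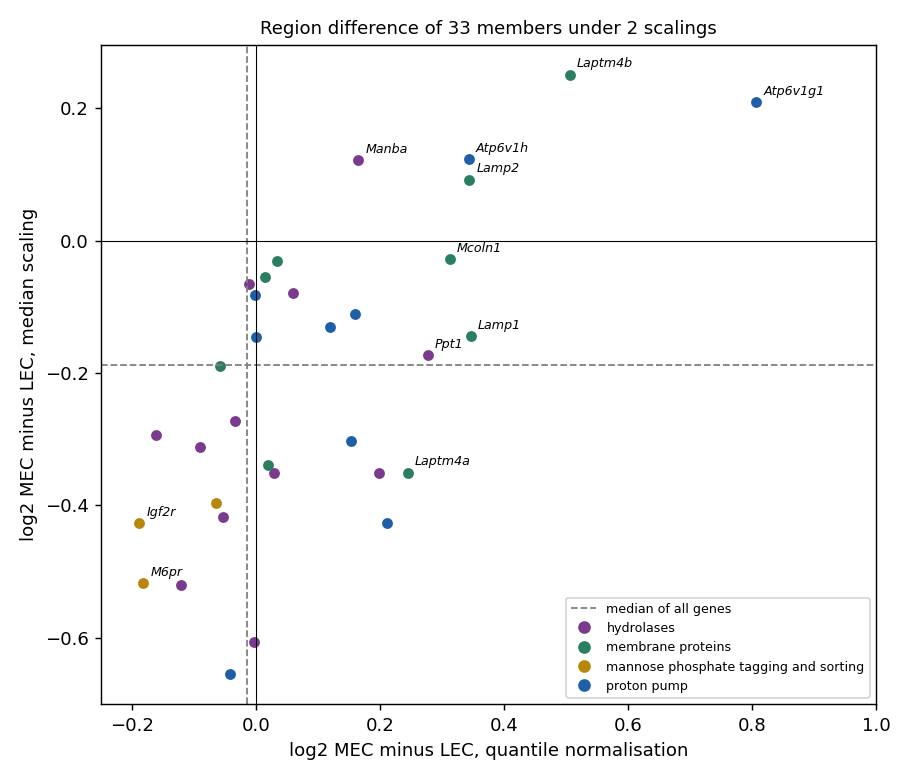
Each point is 1 of the 33 genes, with its MEC minus LEC log2 difference under quantile normalisation on the horizontal axis and under median scaling on the vertical axis; dashed lines mark the median of all genes and names the 11 genes past the threshold. Laptm4b and Atp6v1g1 are the highest on both axes among named genes, and M6pr and Igf2r are below the dashed lines on both.

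Other lysosomal genes outside the list, 43 of them measured, were likewise without a call for loss of Naglu: 0 passed the adjusted p of 0.05 by limma and 34 were above 0 in the average (median 0.031). Of these, 3 had an unadjusted limma p under 0.05 (2.23% of all genes): the cathepsins Ctss (0.81), Ctsb (0.31) and Ctsd (0.20), proteases of the lysosome. All averages of the 43 genes follow the table's direction. For Ctss and Ctsb the mutant was brighter on 12 of 12 arrays, and on 8 with replicate 2 turned. For Ctsd it was brighter on 8 of 12, and on 6 with replicate 2 turned. The dye-swapped arrays of Ctsd fell on the same side of 0 in 2 of 6 pairs. The other 5 measured pump subunits had a median of −0.034. Ctss and Lyz2, lysozyme, are strong in microglia. Under the table's direction Lyz2 averaged 1.78 (adjusted p = 0.0996 by limma). The mutant was brighter for Lyz2 on 12 of 12 arrays, and on 8 with replicate 2 turned. The list of 13 measured microglial genes, which holds Ctss and Lyz2, had a mean above 0 in 6 of 6 pairs (0.19 to 0.47), while the median over the 13 genes was 0.066 in the average: Trem2 was at 0.39 and C1qc at 0.28, and Csf1r (−0.023), P2ry12 (−0.039), Laptm5 (−0.00045), C1qb (0.031) and Cx3cr1 (0.037) lay near 0. Their sums were 1529 to 1670 in MEC pairs and 1306 to 1609 in LEC pairs; C1qa, Cd68, Itgam and Ptprc did not pass the filter, and the part of these cells in the values of the 33 genes was not tested. In quantile-normalised levels, 9 of the 43 genes were called higher in MEC (11.9% of all genes) and 7 lower (13.8%).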

How the data were processed

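RNA of 12 dual-dye arrays was analysed, 3 littermate pairs per region with dye swaps. The deposited scanner files hold intensity per spot and dye, per the file headers from Agilent Feature Extraction 9.5.1.1 (8.5.1.1 per the submitters' processing notes), with a log10 ratio and flags. The authors' value table holds log2 ratios, whose centring and direction are not stated; its match to the arrays (correlations of 0.995 to 0.999 in size) gave the assignment and direction used. Probe coordinates are of mm8. Files were read with version 1.17.8 of the data.table package and fitted with limma 3.58.1, under R 4.3.3. Background was corrected by normexp (offset 50), dyes were balanced by loess, dye-swapped arrays were averaged and 6 pair values were fitted with a mean per region and a shared spread; p-values were adjusted by Benjamini-Hochberg over all genes. Levels were quantile-normalised. A gene was read by its kept probe of highest mean intensity. Gene names were updated with a RefSeq table of GRCm38.p6 (23374 probes by accession, 6733 by symbol, 2919 by an older symbol, 8148 unnamed).

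The genes named with pair values are the 5 of smallest p in each region and in the average, 3 in the difference, 2 per role and up to 10 by level; genes with wide spread or named as counts were chosen after their values were seen. The members and lists were chosen with earlier results of these data known. The fit was tested on simulated data. Same-numbered MEC and LEC pairs did not deviate together (correlations of −0.18, −0.0010 and −0.36 for ratios), so the numbers gave no sign of pairing the regions. Between pairs of different number the correlations ran from −0.38 (MEC pair 2 with LEC pair 1) to 0.44 (MEC pair 3 with LEC pair 1). With 3 pairs per region these values cannot settle whether the same mice gave both regions. All pairs were treated as independent, and the errors and p-values of the averages rest on that. The labels call the 3 pairs biological replicates.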

Additional observations from a re-analysis of the deposited data

Results flagged for a closer look

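The Gaa log2 ratio of mutant over control was 0.57 in LEC pair 2, and the nearest of the other 5 pairs was 0.12; the gap is 0.66 of the whole range over 6 pairs, above the critical value for 6 values. The 6 pairs join both regions, since groups of 3 pairs are not tested in this way. Chance gives such a gap in about 1 of 20 genes if the 6 pairs are independent.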

How the results depend on the processing

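No gene of the list was called for loss of Naglu under any alternative run. Among all genes, the count of 0 became 1 (Lyz2, 1.78, adjusted p = 0.020) in MEC without LEC replicate 2, 1 (Lyz2, adjusted p = 0.0096) in the average without LEC replicate 2, and 1 (Lyz2) with MEC fitted alone; leaving out pairs otherwise gave 0. With replicate 2 turned as labelled, the average changed sign in 14 of the 33 genes; among the genes named for each comparison, the sign changed for Atp6v1a in MEC (0.100), for Laptm4a (−0.030), Ppt1 (−0.0013), Lamp2 (−0.099) and Gaa (−0.19) in LEC, for Laptm4a (−0.017), Scpep1 (−0.060) and Atp6v0b (0.016) in the average, and for Atp6v1a (0.028), Laptm4a (0.025) and Man2b1 (−0.061) in the difference; the median difference moved to 0.037. With files and dyes as labelled, it changed for Atp6v1a in MEC (0.100) and in the difference (0.15) and for Atp6v0b in the average (0.014). Without MEC replicate 3 the MEC value of Atp6v1f was 0.021, and without replicate 2 of both regions it was −0.41. For levels, median scaling gave 5882 called genes (against 2796), 18 of the list (against 11), a list median of −0.19 (against 0.028) and reversed Ppt1 (−0.17), Lamp1 (−0.14), Laptm4a (−0.35) and Mcoln1 (−0.028). Mutant channels alone gave 387 genes and 2 of the list, control channels alone 552 and 2. Leaving out pairs gave 726 (replicate 2 of both regions) to 2598 genes (without LEC replicate 3; 1726 without MEC replicate 1 and 1778 without LEC replicate 2), 1 to 12 of the list and list medians of 0.024 to 0.061. Processed signals gave a list median of 0.15, and keeping only probes well above background in all 24 readings, chosen after seeing the data, 0.15 over 21 genes with 8 called. The cause of these shifts was not tested. With the replicate block the fits gave 0 called genes for loss of Naglu, and for levels 2402 genes and 8 of the list. Each array had its own slide and each region its own scan day, so neither a slide nor a scan block could be fitted. Dim signals limit the 15 genes not kept.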
